A study of Mus musculus with 32 samples.

Results

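Fatty acid oxidation was described through 44 genes of mitochondrial and peroxisomal oxidation, acyl-CoA activation and hydrolysis and ketone body use. They were chosen by gene name on the array, with earlier results of these data known. All 44 had a measured probe, out of 24523 named genes, with 70 probes in all. Expression was measured in brown adipose tissue on 32 single-colour arrays, 8 in each of 4 groups. Total ChREBP KO mice lack both protein isoforms of Mlxipl and were set against WT mice of the same line. ChREBPβ KO mice carry a CRISPR/Cas9 deletion of the exon from which the β isoform starts, and were set against WT littermates of their own line. Per the study's methods the mice were C57BL6/J males and the deletions were whole-body, so a change in brown fat can follow from loss of ChREBP in another organ. Every mouse, WT included, had been fasted for 24 hours and then refed for 18 hours with 20% glucose in the water. Age is not given in the sources used here.

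ChREBP is a glucose-responsive transcription factor that drives the genes of fat synthesis. Brown adipocytes burn fatty acids for heat. A fatty acid is first joined to coenzyme A by an acyl-CoA synthetase, enters mitochondria through the carnitine shuttle and is shortened by the repeated steps of beta-oxidation, while electrons pass through the electron transfer flavoprotein. Thioesterases reverse the activation. Peroxisomes shorten very long and branched chains, and ketone bodies are an alternative fuel that enters the same acetyl-CoA pool.

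The sequences shown first belong to genes that the results turn on. The probe of Acsl5 is shown because its gene gave the largest fold change among the members and because a second Acsl5 probe did not follow it. The probe of Eci1 is shown as one of the members that rose with narrow spread. Both are 60 bases long, lie on build mm9 at chr19:55368743-55369331 and chr17:24574515-24575912 on the plus strand, and cover 589 and 1398 bases of genome, so each crosses an intron and reads spliced mRNA.
Acsl5 probe: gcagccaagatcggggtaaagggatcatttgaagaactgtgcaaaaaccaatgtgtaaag
Eci1 probe: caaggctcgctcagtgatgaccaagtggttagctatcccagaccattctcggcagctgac

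Promoter windows of 300 bases, from 250 before to 50 after the gene start, were read from RefSeq on build GRCm38.p6. They were given for 37 of the 44 members and not for Cpt1b, Acaa2, Decr1, Hsd17b4, Crat, Abcd2 and Acat1. The 37 genes had 44 windows. The E-box CACGTG, part of the element that ChREBP and its partner Mlx bind as a pair, was searched on either strand. It was found for Acot11 and Acot4, 2 of 37 genes and 2 of 44 windows, against 7.15% of all 32851 windows. The nuclear receptor element AGGTCA was found in 9 of 37 genes (Acadm, Acadvl, Acot3, Acot4, Acsl6, Cat, Cpt1a, Echs1 and Scp2). By window it was in 10 of 44 member windows, against 16.3% of all windows. The direct repeat of AGGTCA with 1 base between, the PPAR type of element, was in 0 member windows and in 0.0396% of all windows. The element TCAAGGTCA of estrogen-related receptors, which contains AGGTCA, was in Acsl6 alone among members and in 0.423% of all windows. The window of Acot11, the thioesterase with the clearest fall, is at chr4:106799782-106800081 on the minus strand, with the E-box in capitals. That of Cat, whose arrays did not overlap between KO and WT in either line, is at chr2:103485104-103485403 on the minus strand, with AGGTCA in capitals.
Acot11 promoter: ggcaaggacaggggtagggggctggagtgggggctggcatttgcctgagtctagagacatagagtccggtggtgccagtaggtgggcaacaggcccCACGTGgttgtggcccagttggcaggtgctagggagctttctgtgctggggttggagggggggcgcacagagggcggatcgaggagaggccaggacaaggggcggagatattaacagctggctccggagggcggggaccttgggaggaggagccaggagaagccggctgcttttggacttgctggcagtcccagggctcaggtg
Cat promoter: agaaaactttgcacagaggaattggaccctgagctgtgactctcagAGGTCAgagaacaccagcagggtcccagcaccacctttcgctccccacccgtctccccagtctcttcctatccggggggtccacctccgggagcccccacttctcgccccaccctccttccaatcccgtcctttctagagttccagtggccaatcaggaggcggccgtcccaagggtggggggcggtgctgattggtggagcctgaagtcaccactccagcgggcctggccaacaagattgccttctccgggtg

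The targeted gene was lower in both KO groups at its brightest probe. Mlxipl was 5.57-fold lower in total ChREBP KO and 2.82-fold lower in ChREBPβ KO. Of 2 dimmer Mlxipl probes, 1 was called in neither KO (0.14 and -0.083), and 1 was 1.70-fold lower in total ChREBP KO and 2.20-fold lower in ChREBPβ KO. The brightest probe does not report the deleted exon alone, so it does not by itself check which isoform was lost. Values below are log2 of quantile-normalized median intensity, the brightest probe stands for its gene, and a gene was called at an adjusted p under 0.05 in limma over all arrays. Levels of different probes are not comparable. The brown adipose markers Ucp1, Cidea, Cox7a1, Zic1 and Prdm16 were above background on every array, and their mean lay between 14.60 and 15.20. Single markers moved all the same. Cox7a1, a subunit of the respiratory chain, was higher in total ChREBP KO (0.46, adjusted p = 2.97e-08) with no overlap of arrays, and Prdm16 was lower (-0.29, adjusted p = 0.0412). Between the WT groups Cox7a1 (0.19) and Prdm16 (0.45) were higher and Zic1 (-0.59) lower in the β line, and none of the 5 was called in ChREBPβ KO. Arrays of the total line also carried skeletal muscle transcripts, with a mean over 8 muscle markers of 12.56 to 16.17 in WT and 14.21 to 15.75 in total ChREBP KO, against 5.68 to 11.86 and 5.72 to 11.21 in the WT and KO mice of the β line. The mean of 8 liver markers ranged from 5.29 to 13.47 and was over 10 on 10 arrays, 9 of them in the β line. In bulk tissue, fewer cells of a type and less RNA per cell cannot be told apart.

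**Figure D1:**
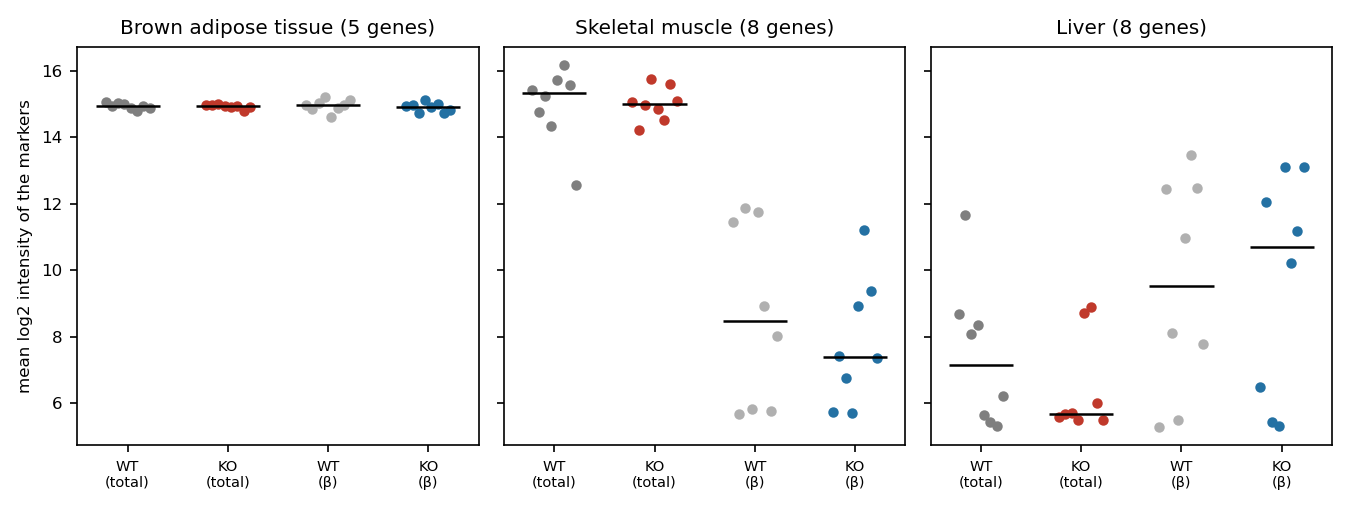
Mean log2 intensity of the brown adipose, skeletal muscle and liver marker genes on each array (points) with the group median (lines), for WT and total ChREBP KO of the total line and WT and ChREBPβ KO of the β line. Brown adipose means lay between 14.60 and 15.20, muscle markers were high in both groups of the total line, and liver markers varied within groups.

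In total ChREBP KO, most genes of mitochondrial oxidation were modestly higher, while Acsl5, Acot11 and Acot1 fell more than 3-fold. Of the 44 members, 25 were called higher and 6 lower than in WT. Over all genes tested, 22.9% were called higher and 21.1% lower in this comparison. The median difference over the members was 0.25, against 0.014 over all genes. In ChREBPβ KO, 2 members were higher and 3 lower, where 1.37% of all genes were called higher and 1.33% lower. In total ChREBP KO the arrays of the groups did not overlap for 19 members, a state found for 16.6% of all genes. In ChREBPβ KO this held for Cat only, against 0.432% of all genes.

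**Figure D2:**
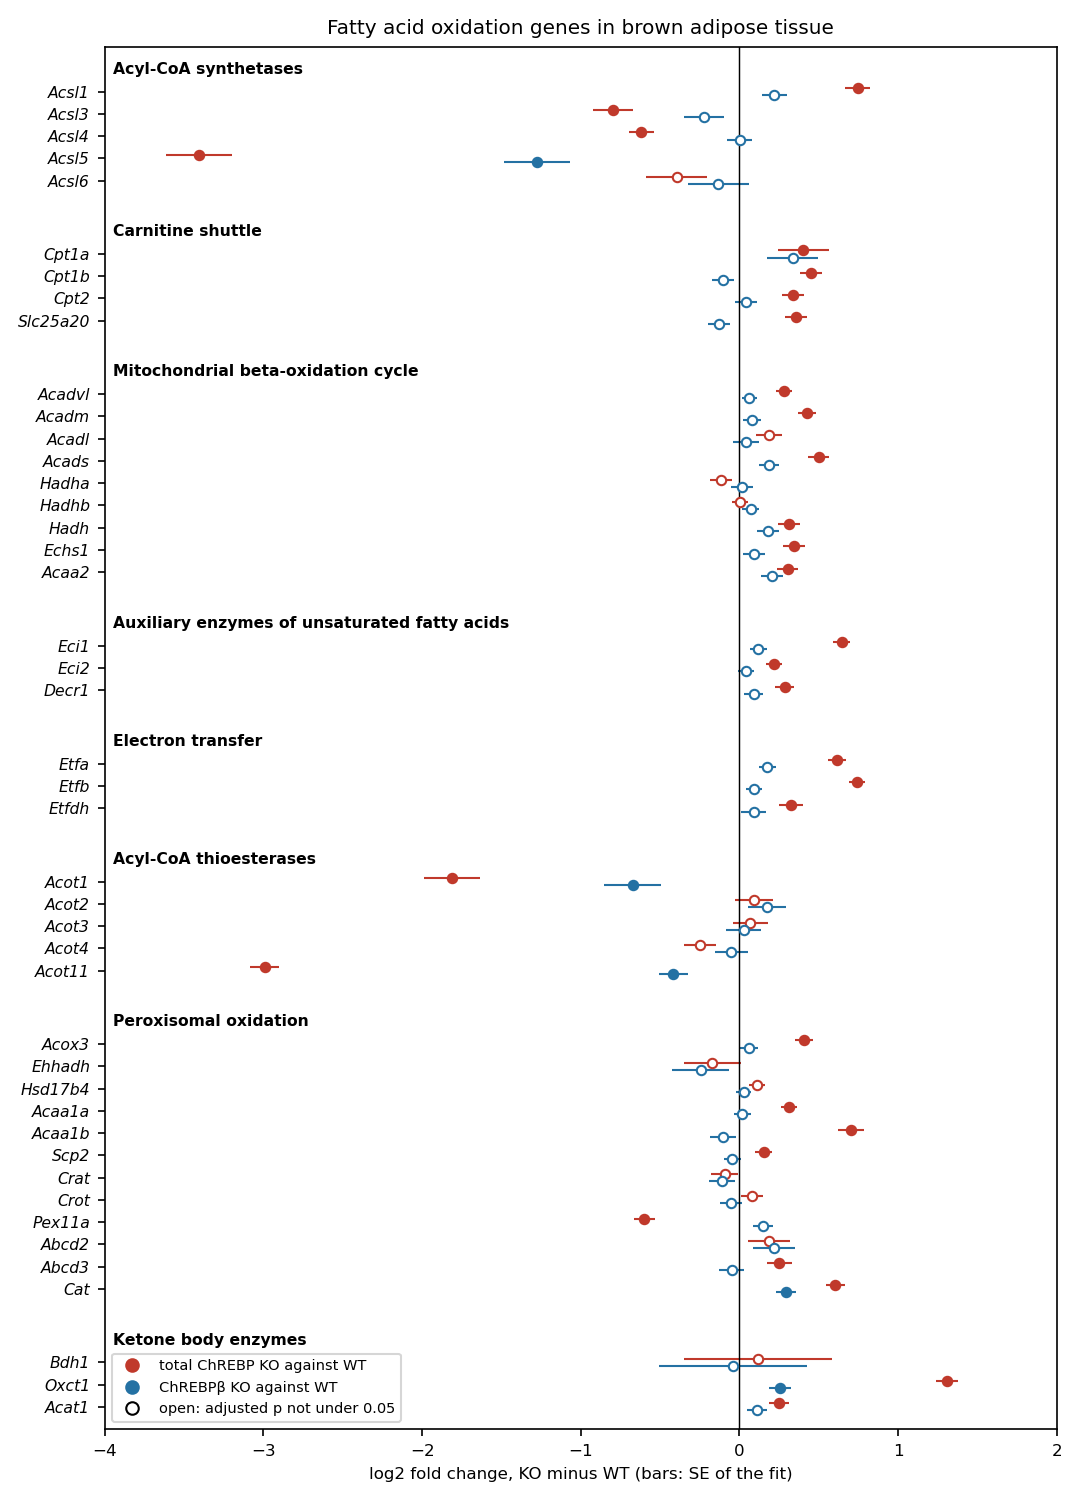
Log2 fold change of each of the 44 members with its SE, KO minus WT, in total ChREBP KO (red) and ChREBPβ KO (blue), ordered by role, where filled points were called. Acsl5 and Acot11 lie at -3.41 and -2.99 in total ChREBP KO, most mitochondrial genes lie between 0 and 1, and the blue points lie between -1.27 and 0.34.

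The acyl-CoA synthetases, which activate fatty acids, split. Acsl5 ranged from 14.55 to 15.22 (median 14.81) in WT of the total line and from 10.85 to 11.81 (median 11.58) in total ChREBP KO, a fall of 10.6-fold (log2 -3.41, SE 0.21, adjusted p = 7.98e-15). In the β line it ranged from 13.16 to 15.01 (median 14.48) in WT and from 12.32 to 13.92 (median 12.99) in KO, a fall of 2.42-fold (log2 -1.27, SE 0.21, adjusted p = 0.000408). The total-line groups stood wholly apart and the β-line groups overlapped, although all 8 ChREBPβ KO arrays were below the WT mean. A dimmer Acsl5 probe, designed to another transcript record, was called in neither KO, with log2 differences of 0.065 and -0.10.

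Acsl1, a synthetase that feeds fat oxidation in brown fat, moved the other way. It ranged from 15.74 to 16.39 (median 15.88) in WT and from 16.62 to 16.75 (median 16.71) in total ChREBP KO, 1.68-fold higher (SE 0.078 on the log2 scale, adjusted p = 1.94e-09). The β-line range was 15.79 to 16.16 (median 15.91) in WT and 15.93 to 16.44 (median 16.17) in KO, where the difference of 0.22 was not called (95% confidence interval 0.06 to 0.38, adjusted p = 0.138). All 3 Acsl1 probes were called higher in total ChREBP KO.

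Acsl3, a synthetase of the endoplasmic reticulum and lipid droplets, was lower in total ChREBP KO, at 8.65 to 9.25 (median 8.86) against 9.27 to 10.02 (median 9.69), a fall of 1.73-fold (adjusted p = 5.03e-06). Its β-line arrays spanned 9.39 to 10.28 (median 9.61) in WT and 9.03 to 9.99 (median 9.41) in KO, and was not called. Acsl4, which prefers arachidonic acid, was at 11.75 to 12.24 (median 12.04) in WT and 11.19 to 11.49 (median 11.42) in total ChREBP KO, a fall of 1.53-fold (adjusted p = 6.56e-08). Its β-line WT and KO arrays covered nearly the same range, 11.34 to 11.75 (median 11.56) and 11.35 to 11.80 (median 11.52). Of the 2 dimmer Acsl4 probes, 1 was called lower in total ChREBP KO (-0.23) and 1 was not (-0.19, adjusted p = 0.147). Acsl6 was above background on all arrays of the total line and on none of the β line, where both groups have only a bound. It was not called in total ChREBP KO (log2 -0.40, adjusted p = 0.0978).

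**Figure D3:**
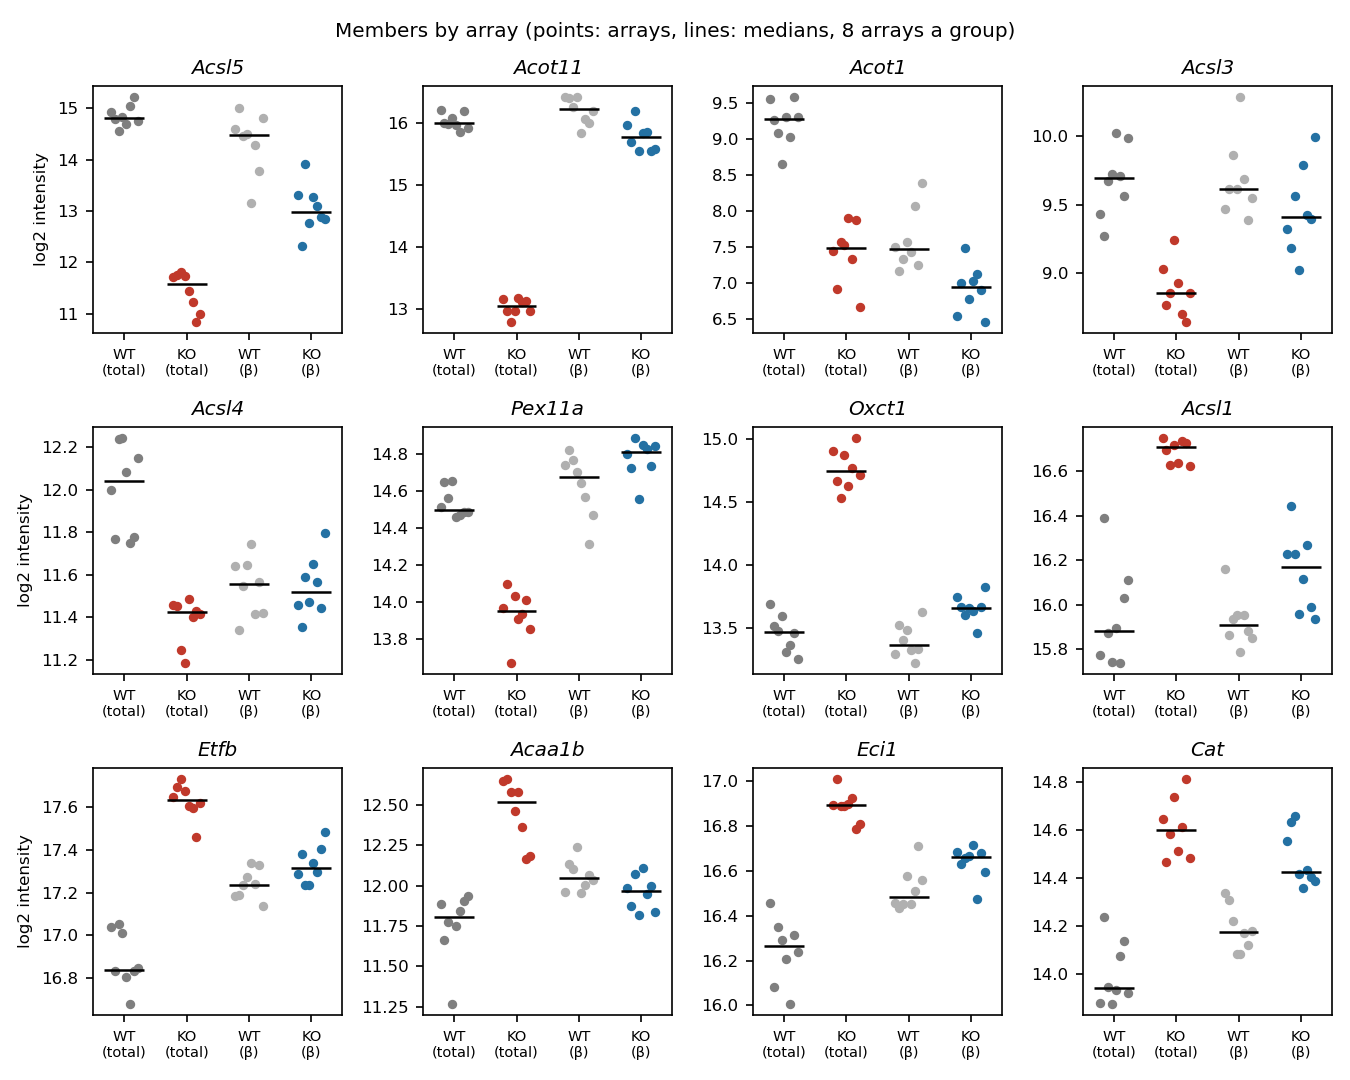
Log2 intensity of 12 members on each array (points) with the group median (lines), in WT and KO of the total line and WT and KO of the β line, 8 arrays each. In the total line WT and KO points do not overlap in any panel, while in the β line only the Cat groups are apart.

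All 4 genes of the carnitine shuttle were higher in total ChREBP KO and none was called in ChREBPβ KO. Cpt1b, the muscle and brown fat form of the rate-limiting step, rose 1.37-fold (log2 0.45, SE 0.071, adjusted p = 3.81e-06). The carrier Slc25a20 rose 1.28-fold and Cpt2, which releases acyl-CoA inside the mitochondrion, 1.26-fold, although a dimmer Cpt2 probe was not called (0.22, adjusted p = 0.074). Cpt1a, the liver form, was 1.32-fold higher with an adjusted p of 0.0418 and overlapping groups. Its total ChREBP KO arrays had an SD of 0.49 against 0.20 in WT, and its call was lost under 7 alternatives other than leaving out an array and without any of 10 single arrays of the total line.

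Within the beta-oxidation cycle 6 of 9 genes rose in total ChREBP KO and none fell. Acads, the short-chain acyl-CoA dehydrogenase, rose 1.41-fold, Acadm, the medium-chain enzyme, 1.34-fold, and Acadvl, the very-long-chain enzyme, 1.22-fold, each with WT and KO arrays apart. Hadh, Echs1 and Acaa2, which carry out the later steps for shorter chains, rose 1.24-fold, 1.27-fold and 1.23-fold with overlapping arrays. The subunits of the trifunctional protein were not called. Hadha differed by -0.12 (95% confidence interval -0.25 to 0.02) and Hadhb by 0.0037 (-0.10 to 0.11), and Acadl by 0.19 (0.02 to 0.35, adjusted p = 0.0674).

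The auxiliary enzymes of unsaturated fatty acids all rose. Eci1, which shifts double bonds, ranged from 16.01 to 16.46 (median 16.27) in WT and from 16.79 to 17.01 (median 16.89) in total ChREBP KO, 1.56-fold higher (adjusted p = 1.15e-11). Its β-line values ranged from 16.44 to 16.71 (median 16.49) in WT and from 16.47 to 16.71 (median 16.66) in KO, and was not called. Decr1, the dienoyl-CoA reductase, rose 1.22-fold and Eci2 1.16-fold, while the dimmer Eci2 probe was not called (-0.028).

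Electron transfer gave the strongest rise among the mitochondrial lists, with a median of 0.61 over its 3 genes. Etfb ranged from 16.68 to 17.05 (median 16.84) in WT and from 17.46 to 17.73 (median 17.63) in total ChREBP KO, 1.67-fold higher (log2 0.74, SE 0.052, adjusted p = 2.07e-13). Etfb in the β line was at 17.14 to 17.34 (median 17.24) in WT and 17.23 to 17.49 (median 17.32) in KO, and the difference of 0.092 was not called. Its partner subunit Etfa rose 1.53-fold in total ChREBP KO at the brightest probe and was called at all 3 of its probes. In ChREBPβ KO the brightest Etfa probe was not called (0.18, adjusted p = 0.0856) and the dimmest was called higher (0.34, adjusted p = 0.0188). Etfdh, which hands the electrons to ubiquinone, rose 1.25-fold in total ChREBP KO.

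Over all genes, 22.9% were called higher and 21.1% lower in total ChREBP KO, with a median of 0.014. Over the 19 mitochondrial genes, 16 rose in total ChREBP KO and 3 were not called, with a median of 0.34. After 75th percentile scaling of the median intensity 14 rose and 1 fell, and with Agilent's processed signal 13 rose and 2 fell, the falls being Hadhb and, with the processed signal, Hadha. The mean over the 19 genes lay between 14.97 and 15.28 (median 15.14) on the WT arrays and between 15.40 and 15.58 (median 15.47) on the total ChREBP KO arrays, with no overlap. The same mean in the β line was 15.18 to 15.35 (median 15.31) in WT and 15.21 to 15.46 (median 15.38) in KO. No mitochondrial gene was called in ChREBPβ KO, where 1.37% of all genes were called higher and 1.33% lower. With shares this small, the lack of a call does not set the list apart. Of the 19 differences 17 were above 0, with a median of 0.090, against 11985 of 24523 and a median of -0.0030 over all genes. The 19 genes were measured on the same arrays, so their signs are not independent. With means of the liver and muscle markers as covariates, 16 mitochondrial genes were called higher in total ChREBP KO and 0 lower. No muscle or liver marker was itself called in this comparison, so that fit cannot decide the part of tissue content, which was not tested. Cox7a1, the brown adipose marker that rose by 0.46 in this comparison, moved with these genes, and its part in the result was not tested. Within the 4 wash batches the median difference over these genes was 0.30, 0.43, 0.20 and 0.49 in total ChREBP KO, and -0.051, 0.15, 0.075 and 0.16 in ChREBPβ KO.

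**Figure D4:**
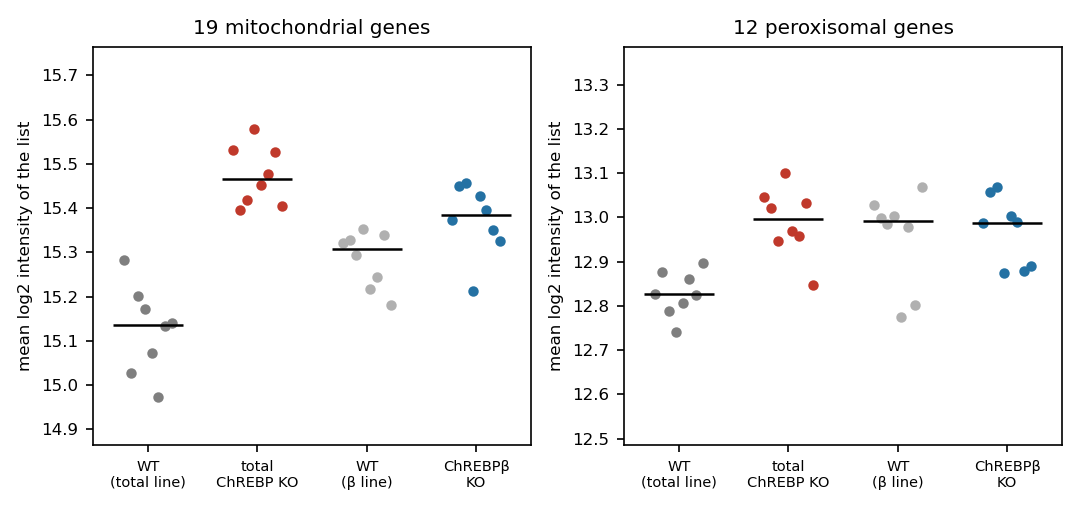
Mean log2 intensity of the 19 mitochondrial genes (left) and of the 12 peroxisomal genes (right) on each array (points) with the group median (lines), both panels spanning the same number of log2 units. The mitochondrial mean of total ChREBP KO lies above its WT arrays without overlap. The peroxisomal means of the 2 groups overlap through KO replicate 8 alone (12.85).

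Peroxisomal genes that were called rose, except Pex11a. Of 12, 6 rose and 1 fell in total ChREBP KO, where 22.9% of all genes were called higher and 21.1% lower. Their median was 0.17, against 0.014 over all genes, and leaving out Crat, which also acts in mitochondria, gave a median of 0.19. Their mean spanned 12.74 to 12.90 (median 12.83) in WT and 12.85 to 13.10 (median 13.00) in total ChREBP KO. The ranges overlapped through KO replicate 8 alone, and every other KO array was at 12.95 or above. The β-line WT mean was 12.77 to 13.07 and the KO mean 12.87 to 13.07. The difference between mitochondrial and peroxisomal genes was not tested.

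Acaa1b, a peroxisomal thiolase, ranged from 11.27 to 11.93 (median 11.81) in WT and from 12.17 to 12.66 (median 12.52) in total ChREBP KO, 1.63-fold higher (adjusted p = 1.44e-08). Its β-line values were at 11.95 to 12.24 (median 12.05) in WT and 11.82 to 12.11 (median 11.97) in KO, and not called. Its close paralog Acaa1a rose 1.24-fold. How far these probes bind both transcripts was not tested.

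Catalase, Cat, which removes the hydrogen peroxide made by peroxisomal oxidation, was the peroxisomal member called in both KO groups. It ranged from 13.88 to 14.24 (median 13.94) in WT and from 14.47 to 14.81 (median 14.60) in total ChREBP KO, 1.52-fold higher (adjusted p = 8.42e-10). In the β line it ranged from 14.08 to 14.34 (median 14.17) in WT and from 14.36 to 14.66 (median 14.43) in ChREBPβ KO, 1.23-fold higher (log2 0.29, SE 0.061, adjusted p = 0.00464). KO and WT arrays were apart in both lines. Without the 10 arrays over the liver limit, which left 4 WT and 3 KO mice in the β line, the adjusted p of Cat in ChREBPβ KO was 0.0836.

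Pex11a, which drives peroxisome division, fell 1.51-fold in total ChREBP KO (log2 -0.60, SE 0.064, adjusted p = 3.46e-09). In ChREBPβ KO its difference was 0.15 and not called. Acox3, an oxidase of branched chains, rose 1.33-fold at its brightest probe, while the other 3 Acox3 probes were not called, with differences from -0.022 to 0.13. The transporter Abcd3 rose 1.19-fold and the carrier Scp2 1.11-fold. Ehhadh, Hsd17b4, Crat, Crot and Abcd2 were not called, with differences from -0.17 to 0.19, although a dimmer Crat probe was called lower (-0.25, adjusted p = 0.0419).

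The thioesterases, which release free fatty acids from coenzyme A, gave 2 of the 3 largest changes. Acot11, a thioesterase of brown fat that restrains fat burning, ranged from 15.86 to 16.21 (median 16.00) in WT and from 12.80 to 13.18 (median 13.05) in total ChREBP KO, a fall of 7.96-fold (log2 -2.99, SE 0.089, adjusted p = 5.51e-23). In the β line it ranged from 15.85 to 16.42 (median 16.23) in WT and from 15.55 to 16.21 (median 15.77) in KO, a fall of 1.33-fold (adjusted p = 0.00653). The β-line ranges overlapped, and 7 of 8 KO arrays lay below the WT mean. The second Acot11 probe was called lower in both KO groups as well (-2.04 and -0.42).

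Acot1, a cytosolic thioesterase, ranged from 8.65 to 9.58 (median 9.28) in WT and from 6.67 to 7.91 (median 7.49) in total ChREBP KO, a fall of 3.51-fold (adjusted p = 6.29e-10). Its β-line arrays spanned 7.16 to 8.38 (median 7.47) in WT and 6.46 to 7.49 (median 6.95) in KO, a fall of 1.59-fold with an adjusted p of 0.0348. The WT arrays of the β line were thus at the level of the total ChREBP KO arrays. That call was lost under 6 alternatives and without any of 8 single arrays of the β line, with adjusted p up to 0.377. Of the same gene cluster, Acot2 and Acot3 were not called. Acot4 lay at the threshold in total ChREBP KO (-0.25, 95% confidence interval -0.46 to -0.04, adjusted p = 0.05) and was called lower under 6 of 15 alternatives. Cross-hybridisation within the cluster was not tested.

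Among the ketone body enzymes, Oxct1, which activates acetoacetate for use as fuel, gave the largest rise of all members. It ranged from 13.25 to 13.69 (median 13.47) in WT and from 14.53 to 15.01 (median 14.75) in total ChREBP KO, 2.47-fold higher (log2 1.31, SE 0.069, adjusted p = 2.32e-16). Oxct1 in the β line ranged from 13.23 to 13.63 (median 13.37) in WT and from 13.46 to 13.83 (median 13.66) in KO, 1.19-fold higher (adjusted p = 0.0381). The second Oxct1 probe was called in total ChREBP KO (1.11) and not in ChREBPβ KO (0.21, adjusted p = 0.103). Acat1, the thiolase of the next step, rose 1.19-fold in total ChREBP KO. Bdh1 was not called, and its 95% confidence interval of -0.84 to 1.07 was wide.

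Within wash batches, each of the 31 members called in total ChREBP KO differed in the called direction in all 4 batches, and so did the 5 members called in ChREBPβ KO. These members were called on the same arrays, so the shared direction is not an independent check. A batch held between 1 and 3 arrays of a group. The difference of Acsl5 lay between -3.96 and -2.92 in total ChREBP KO and between -1.97 and -0.79 in ChREBPβ KO, that of Acot11 between -3.16 and -2.74 and between -0.65 and -0.17. Oxct1 differed by 1.16 to 1.65 and by 0.07 to 0.38, and Cat by 0.43 to 0.73 and by 0.18 to 0.43. The 32 arrays lay on 15 slides, and few slides held both a WT and a KO array of the β line. A block for slide thus left few direct comparisons within a slide. With slide as a block, Cat alone of the members was called in ChREBPβ KO, with an adjusted p of 0.0345. The Acsl5 call in ChREBPβ KO was lost under that block alone (adjusted p = 0.0618), that of Acot11 under it, with its own groups only and without the liver-rich arrays, and that of Oxct1 under 8 alternatives and without any of 10 single arrays of the β line.

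**Figure D5:**
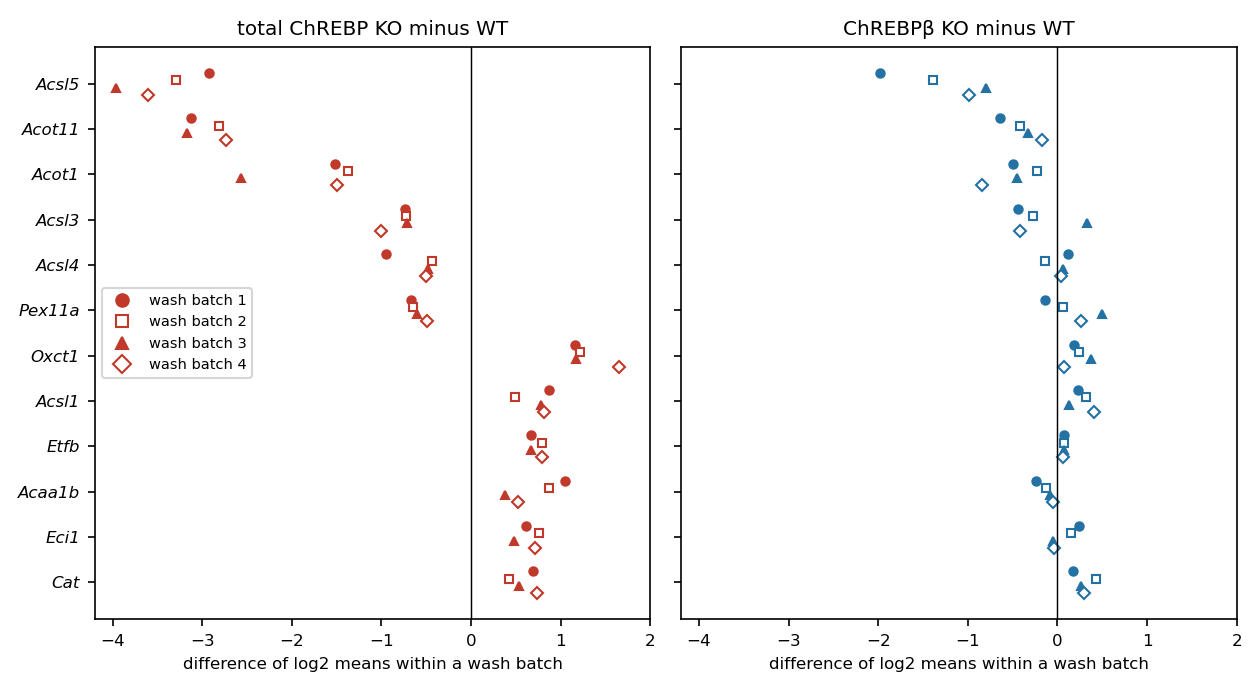
Difference of log2 means between KO and WT within each of the 4 wash batches (symbols) for 12 members, in total ChREBP KO (left) and ChREBPβ KO (right). In the left panel all 4 batches lie on 1 side of 0 for every gene, and in the right panel this holds for Acsl5, Acot11, Acot1, Oxct1, Acsl1, Etfb, Acaa1b and Cat. A batch held between 1 and 3 arrays of a group.

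The effects of the 2 deletions were compared directly, as ChREBPβ KO minus its WT less total ChREBP KO minus its WT. Of the members, 6 were called higher and 16 lower, where 12.2% of all genes were called higher and 13% lower. The 6 higher were Acsl3, Acsl4, Acsl5, Acot1, Acot11 and Pex11a, the genes that fell in total ChREBP KO. The largest of these differences were 2.58 (SE 0.13, adjusted p = 1.58e-16) for Acot11 and 2.13 (SE 0.29, adjusted p = 1.44e-06) for Acsl5. Among the 16 lower, Oxct1 differed by -1.05 and Acaa1b by -0.81. Of the mitochondrial genes 9 of 19 were called, all lower, and of the peroxisomal genes 5 were lower and 1 higher. Muscle transcripts also differed between the arrays of the lines. Liver transcripts varied within groups, and no liver marker was called between the WT groups. With the marker means as covariates, 6 members were called higher and 16 lower. No muscle or liver marker was itself called in the difference, so that fit cannot decide the part of tissue content, which was not tested.

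The WT groups of the lines also differed. In the WT mice of the β line 15 members were higher and 5 lower than in WT of the total line, where 24.8% of all genes were higher and 14.1% lower. The 5 lower were Acsl4, Acsl5, Acsl6, Acot1 and Acot4, and among the higher were Acot2 (0.76), Cpt1a (0.52) and Etfb (0.35). The Acsl5 call lay near the threshold (-0.52, adjusted p = 0.0451) and was kept under only 2 of 15 alternatives. Acsl6 was at least 3.48-fold lower, with no p given, since it was above background in the total line alone and passed the filter on dim probes only through that line. The mean of the muscle markers was lower on every one of these β-line arrays than on any WT array of the total line. With the liver and muscle means as covariates, 5 members were higher and 4 lower. The 24.8% and 14.1% belong to the fit without covariates. Since the muscle mean held the groups apart, the covariate overlaps with line, and the reason for the smaller count was not tested. Line, muscle content and any other difference between the lines cannot be told apart here.

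Genes around the pathway moved as follows in total ChREBP KO. Their lists, like the members, were chosen with earlier results of these data known, so the counts are descriptive. Of 44 such genes 19 were higher and 8 lower, with a median of 0.15, beside 22.9% higher and 21.1% lower over all genes. In ChREBPβ KO 2 were higher and 0 lower, beside 1.37% and 1.33%. The share called lower in total ChREBP KO was thus no larger than over all genes. Among transcriptional regulators, 4 of 6 rose, with Ppara, the fatty acid receptor that switches on oxidation genes, at 1.51, its coactivator Ppargc1a at 1.18, the corepressor Nrip1 at 0.66 and Ppard at 0.27. Ppard was also higher in ChREBPβ KO (0.22, adjusted p = 0.0178). Of 8 genes known to respond to PPAR receptors, 2 rose, a share near the 22.9% of all genes, namely Fabp3, a carrier of fatty acids in the cytosol, at 2.02 and Vnn1 at 0.71, and Fabp3 rose by 0.57 in ChREBPβ KO (adjusted p = 0.00131). Pdk4, Ucp3, Angptl4, Plin5, Cyp4a10 and Cyp4a14 were not called.

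Acacb, which makes the malonyl-CoA that blocks Cpt1, fell by 1.44 in total ChREBP KO, whereas Mlycd, which removes malonyl-CoA, was not called (0.13). Of 6 further mitochondrial enzymes 4 rose, Acot13 (0.62), Acad10 (0.42), Acot9 (0.41) and Acad9 (0.22), and none fell. Of 12 further peroxisomal enzymes 6 rose and 3 fell, led by Hacl1 (0.86), Acad11 (0.76), Ech1 (0.65) and Acot12 (0.63). Of 10 peroxins, which build the organelle, 3 rose and 4 fell, led by Pex11g (0.64), Pex7 (0.44), Pex14 (-0.40) and Pex3 (0.40). With 22.9% of all genes called higher and 21.1% lower, lists as short as the peroxins cannot be set apart from the rest by these counts. None of the 3 last groups had a gene called in ChREBPβ KO.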

How the data were processed

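Brown adipose tissue RNA of 32 mice was hybridised to Agilent mouse arrays. The authors deposited scanner files of Feature Extraction 10.10.1.1 that hold each spot's median intensity before any normalization across arrays. The authors also deposited a log2 table, read with limma and quantile normalized. Probe names and mm9 positions are those of the files. Spots were kept when found, positive and well above background on 26 arrays or on 6 of 1 group (39985 of 59305). Their log2 median intensity was quantile normalized and replicated probes were reduced to their median, leaving 37306 probes. The mean absolute difference to the deposited log2 table was 0.00298.

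Each probe was fitted in R 4.3.3 with limma 3.58.1 (lmFit, eBayes) over 4 group means. P values are two-sided and were adjusted by Benjamini-Hochberg over all probes. The fit was tested on simulated data. The labels number the samples of a group without naming animals or litters, so p values measure the spread between these samples. The number of arrays limits precision, an array had 64.4% to 71.1% of its spots well above background, and 0 spots were saturated. A "not above background" fold is a bound, against the higher of the probe and the lowest signal well above background.

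Members and lists were chosen with earlier results of these data known. Every member may be named, and the 10 largest called changes per KO are given by array. Genes outside the members were named when called, at most 4 per list, with the uncalled genes of the malonyl-CoA and PPAR-responsive lists. Marker lists covered brown and white adipose tissue, muscle, liver and lymphocytes. The mean of the white adipose markers (3 of 4 measured) was between 7.15 and 8.94, and that of lymphocyte markers (4 of 5 measured) between 5.98 and 6.88. The E-box and AGGTCA windows printed were chosen after the search. Alternatives changed the signal, background correction, scaling, filter, blocks (wash batch, slide, replicate number), weights, samples, moderation, thresholds, probe rule and covariates, and left out each array.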

Additional observations from a re-analysis of the deposited data

Results flagged for a closer look

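Each group of 8 arrays was searched for an array far from the others, which chance flags in about 1 in 20 groups. Of 176 groups over the 44 members, 9 held such an array. In WT of the total line these were low values of Acsl6 on replicate 8 (5.09, nearest 6.31), of Acadm (16.37) and Etfdh (14.58) on replicate 6 and of Acaa1b on replicate 4 (11.27, nearest 11.67), and a high value of Scp2 (16.28) on replicate 2. In WT of the β line they were a high value of Acsl1 (16.16) on replicate 1 and a low value of Crat (14.60) on replicate 5. In ChREBPβ KO they were low values of Cpt2 (15.16) and Acadl (15.17), both on replicate 4.

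The effects of the deletions differed, by the test of the difference itself, for 22 members. The difference is the log2 effect of ChREBPβ loss minus that of total ChREBP loss. It was 2.58 for Acot11, 2.13 for Acsl5, 1.14 for Acot1, 0.75 for Pex11a, 0.62 for Acsl4 and 0.57 for Acsl3. It was -1.05 for Oxct1, -0.81 for Acaa1b, -0.65 for Etfb, -0.56 for Cpt1b, -0.53 for Eci1, -0.52 for Acsl1, -0.48 for Slc25a20 and -0.44 for Etfa. It was between -0.35 and -0.22 for the others, Acox3 (-0.35), Acadm (-0.35), Acads (-0.31), Cat (-0.31), Abcd3 (-0.30), Acaa1a (-0.30), Cpt2 (-0.30) and Acadvl (-0.22). Abcd3 was the weakest, with an adjusted p of 0.0455, and its call was kept under 9 of 14 alternatives. Acadvl and Cat kept theirs under 10, Acads under 11, and Acadm, Acox3 and Cpt2 under 12. The remaining members of the 22 kept theirs under 13 or 14.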

How the results depend on the processing

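In total ChREBP KO, 24 of the 31 called members kept their call under every alternative run for single genes. Abcd3, Acat1, Acox3, Cpt1a, Decr1, Eci2 and Scp2 did not. A fold of at least 1.5 lowered the members called to 13 in total ChREBP KO, 2 in ChREBPβ KO, 8 in the difference and 4 between WT groups. The count of 5 in ChREBPβ KO also fell to 1 with slide as a block, 2 with its own groups only, 3 with marker covariates, 3 at an adjusted p under 0.01 and 1 without the 10 liver-rich arrays, an alternative chosen after seeing the data. Between WT groups, marker covariates left 9 of 20. Of the ketone body genes called (2), 1 was left with the processed signal, with 75th percentile scaling and with the slide block. Higher and lower calls were 19 and 8 with the processed signal in total ChREBP KO, 1 and 3 in ChREBPβ KO under both 75th percentile scalings, and 7 and 11 in the difference after scaling the median intensity. Hadhb turned to -0.17 and -0.20 in total ChREBP KO under these scalings, and Cpt2 to -0.032 between WT groups with the mean of its probes. The cause of these changes was not tested.

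Leaving out single arrays gave 30 to 33 members in total ChREBP KO, 3 to 6 in ChREBPβ KO, 21 to 25 in the difference, 19 to 22 between WT groups, 15 to 17 mitochondrial, 6 to 8 peroxisomal and 2 ketone body genes. The 3 came without WT replicate 1 or 6 or KO replicate 1, 4, 7 or 8 of the β line. Deviations of same-numbered KO and WT arrays correlated between -0.30 and 0.080 in the total line and between -0.20 and 0.53 in the β line, with 0 of 8 and 6 of 8 pairs over 0.1. Since not every pair passed 0.1, the numbers were not taken as pairs. The same-numbered WT array was the best match of a KO array in 0 of 8 cases in the total line and 1 of 8 in the β line. With the replicate block, 32, 4, 23 and 21 members were called, and in ChREBPβ KO the count fell from 5 to 4, without Acot1. That block joined same-numbered arrays of both lines, so it does not test pairing within a line. Small differences in dim genes such as Acsl6 are limited by background.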
